A study of Mus musculus with 2 samples.

Results

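The 10 genes described here, Fos, Fosb, Jun, Junb, Jund, Egr1, Ier2, Atf3, Dusp1 and Zfp36, are the immediate early response genes of the mouse small intestine in this dataset. They were chosen by gene symbol, and all 10 were found among the 43346 Ensembl genes of the gene tables. The tissue came from C57BL/6J mice, an inbred strain, as adults of 8 weeks and pooled from both sexes, and the labels name no treatment and no segment of the gut. They give 2 libraries of poly(A)-selected RNA as biological replicates 1 and 2 of 1 group, so no test between groups was possible, and values are given for both replicates, with mean ± SD where it helps. The labels do not say how many animals each replicate holds, and the spread between replicates may therefore be partly technical.

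Immediate early genes are transcribed within minutes of a stimulus without new protein synthesis, mostly from kinase cascades that end on the serum response factor SRF and on CREB. Fos and Jun proteins pair through leucine zippers into the transcription factor AP-1, Egr1 is a zinc finger transcription factor, and Atf3 is a stress-induced factor that pairs with Jun proteins. Dusp1, a phosphatase that inactivates MAP kinases, and Zfp36, an RNA-binding protein that speeds the decay of AU-rich mRNAs, damp the response. These transcripts are also known to be induced while tissue is dissected or dissociated.

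The libraries held 45472946 and 45822403 expected counts, and markers of other tissues differed between them. The 11 enterocyte markers summed to 9355 TPM, a length-corrected share of all transcripts, in replicate 1 and 24046 TPM in replicate 2, and all 11 were at or above 1 TPM in both. The 16 exocrine pancreas markers summed to 258990 TPM (replicate 1) and 1765 TPM (replicate 2), and the 10 stomach markers to 19753 and 51.5 TPM. All 16 pancreas markers lay higher in replicate 1. The parietal cell markers Atp4a (0.95 and 0.30 TPM) and Atp4b (0.05 and 0.07 TPM) were under 1 TPM in both libraries. TPM is a share of the whole library, and the median gene lay 0.66 log2 units lower in replicate 1. Ratios are therefore given as log2((TPM + 1) / (TPM + 1)), replicate 1 over replicate 2, minus that of the median gene, and the part of the pancreas and stomach RNA in the members' values was not tested. In bulk tissue, fewer cells of a type and less RNA per cell cannot be told apart.

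The promoters of 5 members are shown, each with a motif match in the bases printed. These genes span the range of differences between the replicates given further on, from Fosb and Atf3 to Dusp1. The promoters of Jun, Junb and Jund hold no match in the same 250 bases and are not shown. Each run is the 250 bases before the RefSeq start on GRCm38.p6, 5′ to 3′ on the gene's strand. Capitals mark matches on either strand to the CArG box of SRF, the CREB site core TGACGT, the TATA motif TATAAA or the Egr motif GCGNGGGCG.
Fosb (chr7:19310046-19310295, minus strand): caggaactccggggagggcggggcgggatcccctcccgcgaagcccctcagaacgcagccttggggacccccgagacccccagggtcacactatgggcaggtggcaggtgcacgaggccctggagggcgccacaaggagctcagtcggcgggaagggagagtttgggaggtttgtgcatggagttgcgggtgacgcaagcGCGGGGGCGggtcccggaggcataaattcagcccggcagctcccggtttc
Atf3 (chr1:191183334-191183583, minus strand): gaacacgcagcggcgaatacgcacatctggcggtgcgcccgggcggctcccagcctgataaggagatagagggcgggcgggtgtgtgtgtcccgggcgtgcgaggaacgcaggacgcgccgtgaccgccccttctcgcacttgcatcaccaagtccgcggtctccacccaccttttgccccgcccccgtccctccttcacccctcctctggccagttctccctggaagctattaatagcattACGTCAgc
Fos (chr12:85473640-85473889, plus strand): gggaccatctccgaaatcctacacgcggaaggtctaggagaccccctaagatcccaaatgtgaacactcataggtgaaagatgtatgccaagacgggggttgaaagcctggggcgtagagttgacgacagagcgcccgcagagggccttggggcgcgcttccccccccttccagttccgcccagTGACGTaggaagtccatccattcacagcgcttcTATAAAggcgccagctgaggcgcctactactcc
Zfp36 (chr7:28379229-28379478, minus strand): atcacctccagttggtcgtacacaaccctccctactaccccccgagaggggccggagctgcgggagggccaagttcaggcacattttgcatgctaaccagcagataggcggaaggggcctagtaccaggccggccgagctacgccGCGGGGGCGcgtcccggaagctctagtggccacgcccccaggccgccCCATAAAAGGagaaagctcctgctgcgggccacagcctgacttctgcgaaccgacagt
Dusp1 (chr17:26508473-26508722, minus strand): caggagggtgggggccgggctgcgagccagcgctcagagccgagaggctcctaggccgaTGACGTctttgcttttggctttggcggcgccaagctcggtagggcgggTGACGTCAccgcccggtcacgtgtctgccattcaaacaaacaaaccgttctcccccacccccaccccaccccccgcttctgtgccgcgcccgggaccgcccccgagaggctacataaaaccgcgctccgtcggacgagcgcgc

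RefSeq windows of 250 bases before and 50 after the start were matched for 8 of the 10 members, Egr1 and Ier2 being the ones without a match. TGACGT was in 3 of the 8 (Atf3, Dusp1 and Fos), against 7.51% of 32851 promoters. Dusp1 held 3 matches, of which 2 overlap, on opposite strands, as the palindrome TGACGTCA. The CArG box was in Zfp36, against 1.63% of promoters, and its match began 58 bases before the start. TATAAA was in Fos, 33 bases before the start, and in Junb, where it began at the start and not upstream of it, against 13.6%. GCGNGGGCG was in Fosb and Zfp36, against 5.55%, and the AP-1 motif TGANTCA was in none of the 8, against 7.81%. RefSeq and GENCODE M21 starts can differ. The 250 bases of Jund end at 70697738, upstream of its M21 start at 70698949. Those of Zfp36 lie inside its M21 transcript (28376784 to 28380253). A match or its lack therefore holds for the RefSeq start and these windows only, and sites farther upstream were not searched. These matches describe the letters of the windows and do not show binding.

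All 10 members had reads in both libraries, and 9 of them were at or above 1 TPM in both, against 25.8% of all Ensembl genes and 49.3% of protein-coding genes. Fosb was the exception, below 1 TPM in replicate 1. The members summed to 587 TPM (replicate 1) and 1524 TPM (replicate 2), with a mean of 1055 ± 662 (SD, n = 2), so the mean exceeded the spread. Jund was first and Fosb last of the 10 in both replicates.

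The Jun genes encode the AP-1 subunits that can pair with themselves as well as with Fos proteins. Jund (ENSMUSG00000071076.5), the Jun family member known for steady expression in resting cells, was at 191 TPM (replicate 1) and 509 TPM (replicate 2), with a mean of 350 ± 225 (SD, n = 2), from 25621 and 53345 counts. It ranked 379th and 245th among protein-coding genes. Junb (ENSMUSG00000052837.5), which can restrain Jun activity, was at 96.1 and 264 TPM. Jun (ENSMUSG00000052684.4), the founding member, was at 45.3 TPM (replicate 1) and 117 TPM (replicate 2). The order Jund, Junb, Jun held in both libraries.

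The Fos genes encode the subunits that need a Jun partner to bind DNA. Fos (ENSMUSG00000021250.9) was at 82.8 TPM (replicate 1) and 232 TPM (replicate 2), with a mean of 157 ± 106 (SD, n = 2), from 7531 and 16787 counts. Fosb (ENSMUSG00000003545.2), its close relative, was at 0.61 TPM (replicate 1) and 6.59 TPM (replicate 2), from 109 and 917 counts. It was above only 44.5% of protein-coding genes in replicate 1 and above 65.9% in replicate 2. Fos and Fosb were far apart in level in both libraries.

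Among the other transcription factors, Egr1 (ENSMUSG00000038418.7) was at 9.66 TPM (replicate 1) and 28.4 TPM (replicate 2). Atf3 (ENSMUSG00000026628.9) was at 6.30 TPM (replicate 1) and 33.6 TPM (replicate 2), from 560 and 2337 counts. Ier2 (ENSMUSG00000053560.4), a short nuclear protein gene of the same early class, was at 29.7 and 59.5 TPM. Egr1 stood above Atf3 in replicate 1 and below it in replicate 2.

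The feedback inhibitors differed from each other. Zfp36 (ENSMUSG00000044786.5) was at 104 TPM (replicate 1) and 246 TPM (replicate 2), with a mean of 175 ± 100.7 (SD, n = 2). Dusp1 (ENSMUSG00000024190.6) was at 22.6 TPM (replicate 1) and 27.4 TPM (replicate 2), with a mean of 24.99 ± 3.43 (SD, n = 2), from 1908 and 1905 counts. Dusp1 had the smallest gap in TPM between replicates of the 10 genes. Relative to the median gene, Ier2 (-0.32) lay nearer to 0 than Dusp1 (0.39). By TPM, Dusp1 ranked 7th of the members in replicate 1 and 9th in replicate 2.

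**Figure D1:**
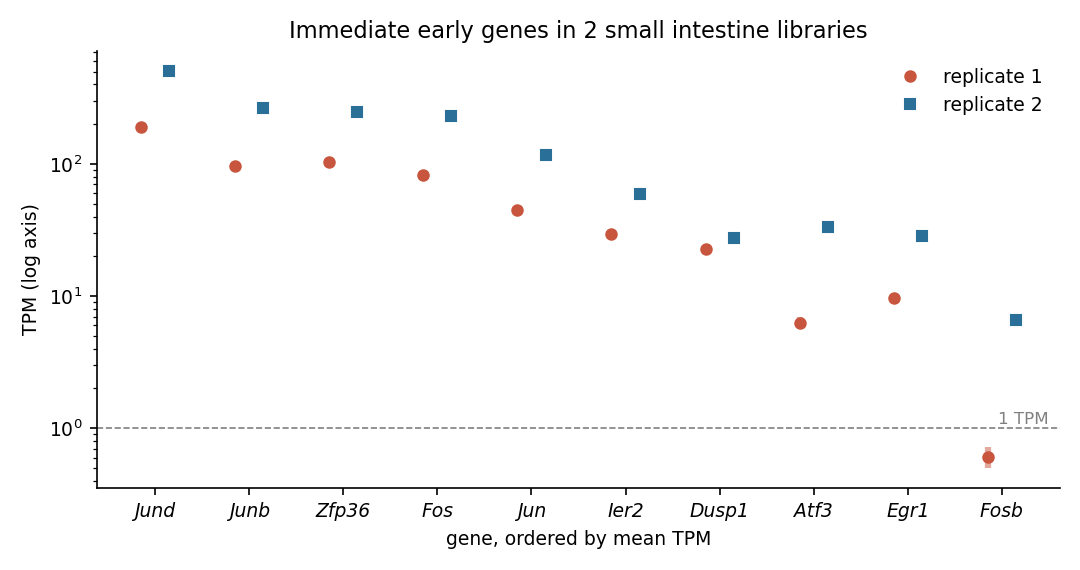
TPM of each of the 10 genes on a log axis, ordered by mean, with replicate 1 as circles, replicate 2 as squares and the deposited credibility interval as a bar, mostly hidden by the symbol. Replicate 2 lies above replicate 1 for every gene, least for Dusp1 (22.6 and 27.4 TPM), and Fosb in replicate 1 is the one point under 1 TPM.

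Several neighbours in the order of levels did not differ beyond the spread. The log2 ratio of Junb to Zfp36 within a library was -0.11 in replicate 1 and 0.10 in replicate 2, with a mean of -0.004 ± 0.15 (SD, n = 2), which is within the spread. Nor did Dusp1 differ from Atf3 beyond the spread (1.84 and -0.29, mean 0.77 ± 1.51, SD, n = 2), or Atf3 from Egr1 (-0.62 and 0.24, mean -0.19 ± 0.61). Other neighbours kept a mean ratio above its SD, with Jund over Junb at 0.99 and 0.95 and Fos over Jun at 0.87 and 0.99. Zfp36 over Fos, at 0.32 and 0.08 (0.20 ± 0.17, SD, n = 2), exceeded its SD only narrowly.

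All 10 members had the higher TPM in replicate 2, with deposited credibility intervals apart. This was usual in these libraries, since 73.5% of 12260 genes averaging at least 1 TPM had replicate 2 above with intervals apart. Relative to the median gene, 9 of the 10 members lay below 0, that is, lower in replicate 1, and the median member was at -0.77. For the 9 members averaging at least 10 TPM, of which 8 lay below 0 (61.7% of 5926 such genes did), the median was -0.75, against -0.15 over those genes. Jund (-0.75), Junb (-0.78), Fos (-0.81), Egr1 (-0.80), Jun (-0.69) and Zfp36 (-0.58) lay close together, and Ier2 (-0.32) lay nearer to 0.

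Atf3 and Dusp1 stood at the ends of these 9 members. Here and in the lists of other genes, over 2-fold is counted relative to the median gene unless another scale is named, so it can differ from the ratio of the TPM themselves. Atf3, at -1.58, was the 1 of 9 that was over 2-fold higher in replicate 2, against 7.83% of genes, and 3.39% of genes had a lower ratio. Dusp1, at 0.39, was the only member above 0, and 83.6% of genes had a lower ratio. No member was over 2-fold higher in replicate 1, against 5.28% of genes. Fosb, at -1.57, was under the mean TPM of 10 and was not counted; with a pseudocount of 0.1 in place of 1 its value was -2.45.

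**Figure D2:**
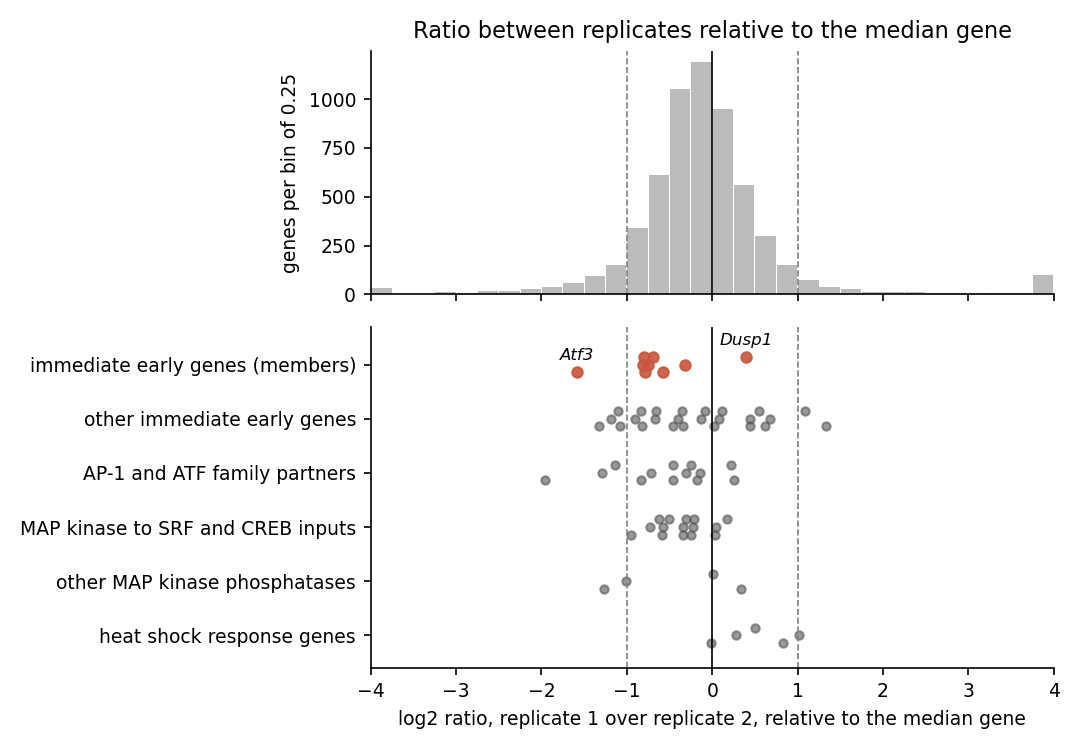
Upper panel, number of genes with mean TPM of at least 10 by log2 ratio of replicate 1 over replicate 2 relative to the median gene, with genes beyond the axis in the end bins; lower panel, 1 point for each gene of the named lists that passes the same minimum, dashed lines marking 2-fold. Of the 9 members shown, 7 lie between -0.81 and -0.32, Atf3 lies at -1.58 and Dusp1 at 0.39.

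How far the members' ratios lay from 0 depended on the scaling. The median over genes averaging at least 1 TPM moved too, from 0 on the main scale to -0.66 without centring. Dusp1 was the highest of the 10 ratios on each of the 9 scales computed, and Atf3 and Fosb the lowest pair. Dusp1 itself was below 0 without centring (-0.27), and 0.03 when TPM was scaled by the spike-in RNA. Members over 2-fold higher in replicate 2 numbered 1 of 9 relative to the median gene and with counts scaled by TMM or DESeq2, 6 with spike-in scaling and 7 with no centring, where 17.5% and 34.9% of genes were called.

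**Figure D3:**
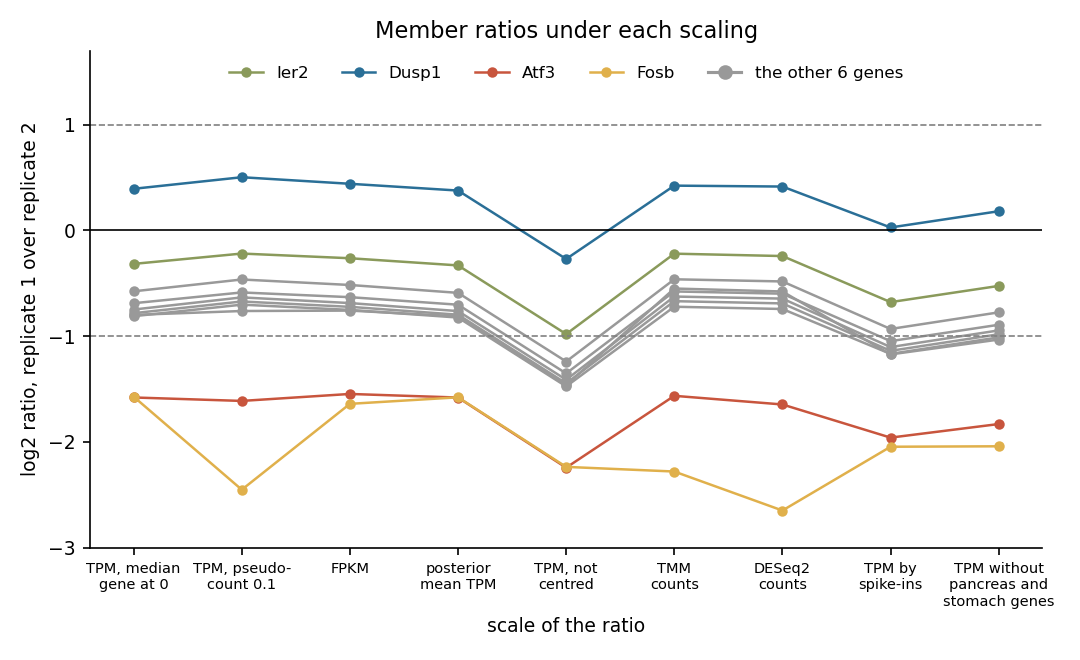
Log2 ratio of replicate 1 over replicate 2 for each of the 10 members (lines) on 9 scales (x axis), with dashed lines at 2-fold. Dusp1 is the top line, between -0.27 and 0.50 and below 0 only without centring, and Fosb drops away from the other lines with a pseudocount of 0.1 (-2.45), TMM (-2.28) and DESeq2 (-2.65).

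Ratios between members of 1 library do not depend on its total and so were set side by side. Jund made up 57.4% of Jun family TPM in replicate 1 and 57.2% in replicate 2, with a mean of 57.3% ± 0.15 (SD, n = 2), Junb 28.9% and 29.6%, and Jun 13.6% and 13.2%. The make-up of the Jun family thus differed by less than 1 percentage point between libraries whose summed Jun family TPM was 332 and 890. In the Fos family, Fos held 79.02% in replicate 1 and 73.8% in replicate 2, and Fosl2, a Fos relative, 19.9% and 23.9%. Fosb held 0.58% and 2.10%, and Fosl1 0.46% and 0.17%. Jun family TPM was 3.17 times that of the Fos family in replicate 1 and 2.83 times in replicate 2.

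Egr1 held 77.2% of Egr family TPM in replicate 1 and 83.9% in replicate 2. Zfp36 held 41.2% and 47.1% of its family, next to 39.6% and 34.5% for Zfp36l2 and 19.1% and 18.5% for Zfp36l1, both also decay factors for AU-rich mRNA. Ier2 held 46.3% and 45.9% of the Ier group. Among the inducible nuclear MAP kinase phosphatases Dusp1, Dusp2, Dusp4 and Dusp5, Dusp1 held 52.1% in replicate 1 and 43.4% in replicate 2. The log2 ratio of Dusp1 to Fos was -1.88 in replicate 1 and -3.08 in replicate 2, and that of Fosb to Fos was -7.09 and -5.14, gaps wider than for Egr1 to Fos (-3.10 and -3.03).

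**Figure D4:**
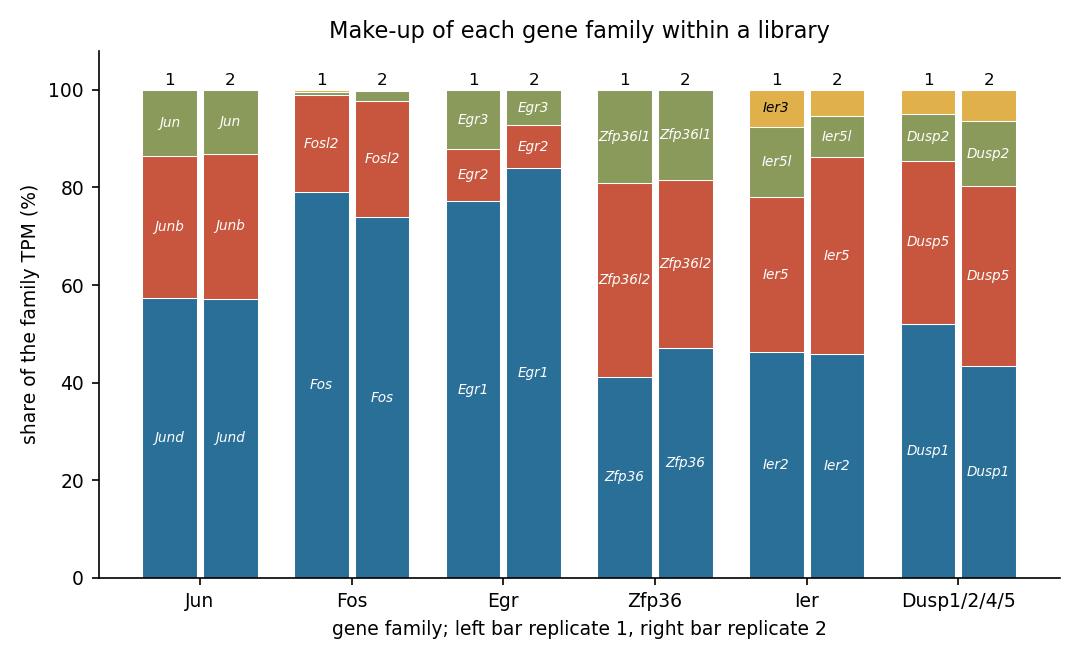
Share of the summed TPM of each gene family (percent) held by each gene, left bar replicate 1 and right bar replicate 2, narrow segments not labelled. The Jun family bars are nearly the same (Jund 57.4% and 57.2%), while Dusp1 holds 52.1% and 43.4% of its group.

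The transcript tables list 1 transcript for Jund, Junb, Jun, Ier2, Zfp36 and Fosb, so no form of these genes could be compared. For Fosb that transcript (ENSMUST00000003640.2, 3751 nt) encodes the full-length protein of 338 residues. GENCODE M21 also holds a coding form of 237 residues, the length of the truncated splice form known as ΔFosB, which has no row of its own for this gene here. For Atf3, all counts went to ENSMUST00000027941.9 in both libraries, and the other coding transcript was listed at 0.

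Of the 4 members with several transcripts listed, Egr1 had the widest gap in transcript shares between the replicates. ENSMUST00000064795.5, of 4484 nt and 2 exons, held 64.6% of Egr1 TPM in replicate 1 and 30.8% in replicate 2. ENSMUST00000165033.1, of 3036 nt and 3 exons, held 35.4% and 69.2% (52.3% ± 23.9, SD, n = 2), from 487 and 2182 counts. Both encode the same 533 residues, and their order was reversed between the libraries, by an estimate that divides shared reads. The length used for Egr1 TPM follows this split (effective length 3736 and 3264 nt), so its TPM ratio depends on it. The log2 ratio of Egr1 was -0.80 on the main scale and -0.55 with TMM-scaled counts. Fos came mostly from its coding transcript ENSMUST00000021674.6, at 93.6% and 95.9%, with 6.43% and 4.02% on a noncoding form, ENSMUST00000136122.3. Dusp1 came mostly from ENSMUST00000025025.6, at 88.7% in replicate 1 and 97.4% in replicate 2. Its retained-intron transcript ENSMUST00000146077.1 held 8.67% in replicate 1 and 1.09% in replicate 2, from 60 and 7.28 counts.

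**Figure D5:**
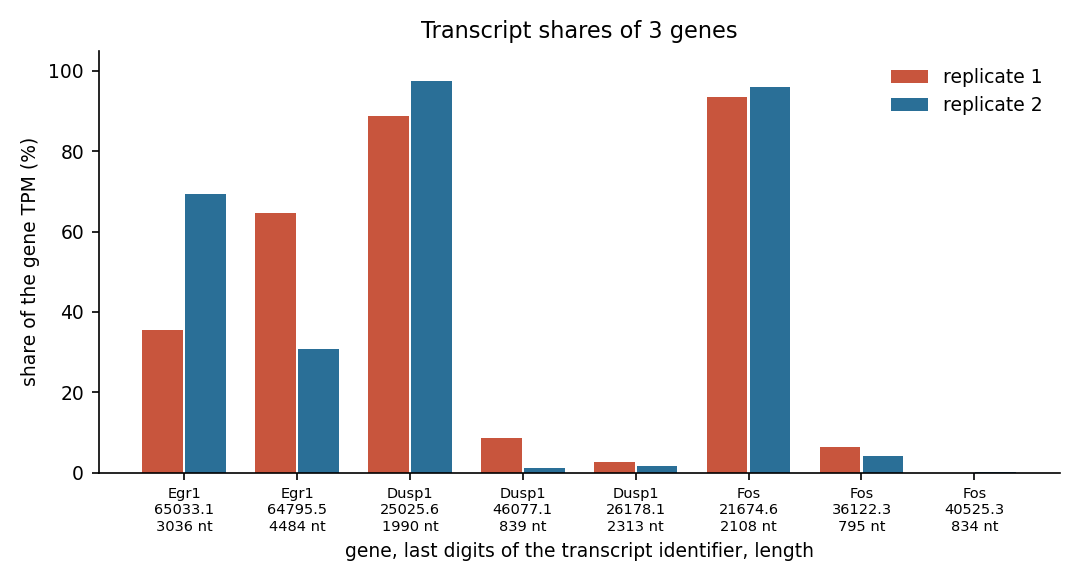
Share of gene TPM (percent) held by each transcript with reads of Egr1, Dusp1 and Fos, with replicate 1 left and replicate 2 right of each pair of bars. The Egr1 pair crosses over (35.4% and 69.2% for the 3036 nt form), while 1 transcript leads in both libraries for Dusp1 and Fos.

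The members have few exons. The major transcripts of Jund, Junb, Jun and Ier2 have 1 exon in GENCODE M21, against 2.78% of the 11381 protein-coding genes with mean TPM of at least 1, whose median was 7 exons. All 10 have 4 exons or fewer, against 29.2%. On GRCm38, Jund lies on chromosome 8 (70698949 to 70700616, plus strand), Ier2 at 84661331 to 84662852 and Junb at 84974484 to 84978718 on the minus strand of the same chromosome, with 312 kb separating Ier2 and Junb. The Jund transcript is 1668 nt in this annotation and 2878 nt in the deposited tables, and that of Zfp36 is 2790 and 1792 nt. TPM is corrected for length, so the levels, ranks and family shares of these genes depend on the annotation used. Fosb (19302696 to 19310051) and Zfp36 (28376784 to 28380253) lie on chromosome 7, Fos on chromosome 12 (85473890 to 85477273), Jun on chromosome 4 (95049034 to 95052222), Atf3 on chromosome 1 (191170296 to 191218039), Dusp1 on chromosome 17 (26505590 to 26562128) and Egr1 on chromosome 18 (34859823 to 34864984).

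Some of these genes share exon sequence with genes on the other strand. Overlaps were counted over all GENCODE M21 transcripts of a gene. Junb overlaps Prdx2, a peroxide-removing enzyme gene at 56.9 and 116 TPM, over 173 nt. M21 holds 2 Junb transcripts and the quantification used 1. Whether those 173 nt lie in the quantified transcript was not checked. Jund overlaps the antisense gene Gm11175 (4.29 and 3.9 TPM) over 877 nt, and Jun overlaps Junos (0.28 and 0.23 TPM) over 232 nt. The labels give stranded libraries, but whether the quantification used strand is not given in the sources used here. Any reads counted for a member in these stretches are therefore of uncertain origin.

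Immediate early mRNAs are known to be short-lived, and AU-rich elements in the 3′ untranslated region are one route of decay. The pentamer ATTTA was present in the 3′ untranslated region of 9 of the 10 major transcripts, all but Ier2, against 59.0% of 9832 protein-coding genes. At least 3 copies were present in 5 of 10 (Fos, Jun, Dusp1, Zfp36 and Atf3), against 26.03%. The nonamer TTATTTATT, the preferred site of the Zfp36 protein, was in 3 of 10, Fos, Zfp36 and Dusp1, against 5.73%. The sites, which include 1 in the mRNA of Zfp36 itself, are shown with the nonamer in capitals and flanks from GENCODE M21 transcripts.
Fos: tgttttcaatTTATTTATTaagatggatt
Zfp36: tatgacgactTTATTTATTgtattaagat
Dusp1, site nearer the stop codon: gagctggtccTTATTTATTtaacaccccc
Dusp1, site farther from it: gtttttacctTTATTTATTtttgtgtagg

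Fos, Zfp36 and Dusp1, the members with this site, had relative log2 ratios of -0.81, -0.58 and 0.39, so they did not share a value.

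Of 42 other immediate early genes, 38 were at or above 1 TPM in both libraries, against 25.8% of all Ensembl genes and 49.3% of protein-coding genes. Klf4, a transcription factor of differentiated epithelium, was highest by mean TPM, at 142 TPM (replicate 1) and 479 TPM (replicate 2), followed by Cebpb (156 and 316 TPM), which lay above Klf4 in replicate 1, the survival factor gene Mcl1 (95.9 and 271 TPM) and Gadd45a (85.1 and 172 TPM), a growth arrest gene. The neuronal genes Npas4 (0.70 and 0.69 TPM) and Egr4 (0 and 1 count) and the Fos family gene Fosl1 (0.48 and 0.53 TPM), chosen after their values were seen, were under 1 TPM in both. Of the 25 that averaged at least 10 TPM, 4 were over 2-fold higher in replicate 2, against 7.83% of genes. These were the growth inhibitor Btg2 (14.4 and 60.4 TPM), the EGF receptor inhibitor Errfi1 (5.33 and 21.9 TPM), Klf6 (4.63 and 18.2 TPM) and Klf4. Klf4 passed narrowly, at -1.08, and lay at -0.97 with a pseudocount of 0.1, -0.94 with TMM and -0.96 with DESeq2. Over 2-fold higher in replicate 1 relative to the median gene were 2, against 5.28%, the matrix protein gene Ccn2 (26.2 and 16.1 TPM) and the nuclear NF-kappaB regulator Nfkbiz (42.6 and 31.6 TPM). Without centring, the log2 ratios of Ccn2 and Nfkbiz were 0.67 and 0.42, under 2-fold, and 13 of the 25 were over 2-fold higher in replicate 2, against 34.9% of genes. The median of the 25 relative to the median gene was -0.34, between the members' -0.75 and the -0.15 of all genes.

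Of 20 AP-1 and ATF partners, 18 were detected in both libraries, against 49.3% of protein-coding genes. Of the 13 that averaged at least 10 TPM, 3 were over 2-fold higher in replicate 2 relative to the median gene, against 7.83% of genes. These were Maf (17.1 and 110.9 TPM), a large basic zipper factor, the stress factor Ddit3 (10.6 and 43.7 TPM) and Fosl2 (20.9 and 75.1 TPM). Atf4, the factor that drives Ddit3 under amino acid shortage or endoplasmic reticulum stress, was at 100.4 and 220.01 TPM, and Batf2 at 54.1 and 119 TPM. Nrl, a photoreceptor factor, had no counts in either library.

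Of 29 kinases and factors upstream of these genes, 27 were at or above 1 TPM in both libraries, against 49.3% of protein-coding genes. None of the 15 that averaged at least 10 TPM was past 2-fold in either direction relative to the median gene. Among all genes with that mean, 7.83% were over 2-fold higher in replicate 2 and 5.28% in replicate 1. Without centring, 8 of the 15 were over 2-fold higher in replicate 2, against 34.9% of genes. Map2k2 (171 and 451 TPM) and Mapk3 (157 and 373 TPM), successive kinases of the ERK pathway, Mapk13 (113 and 257 TPM), a p38 kinase, and Rps6ka1 (73.3 and 180.2 TPM), a kinase below ERK, were highest by mean TPM. Their relative log2 ratios lay between -0.73 and -0.51, while Srf, named outside the rule after its values were seen, lay at 0.04 (41.7 and 64.6 TPM).

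Among 10 other MAP kinase phosphatases, 9 were detected in both libraries, against 49.3% of protein-coding genes. Dusp6 (19.9 and 78.7 TPM), which acts on ERK, and Dusp10 (6.07 and 21.6 TPM), which acts on p38 and JNK, were the 2 of 4 averaging at least 10 TPM that were over 2-fold higher in replicate 2, against 7.83% of genes, the relative values being -1.27 and -1.01. Dusp5 (14.5 and 23.3 TPM) and Dusp7 (12.8 and 16.3 TPM) lay at 0.01 and 0.33. Dusp1, at 0.39, was above all 4 of these. Nab2, a corepressor of Egr1, was at 7.52 and 26.03 TPM, with a relative log2 ratio of -1.002. It was the 1 gene past 2-fold of the 3 in the list of Egr corepressors and Zfp36 relatives that reached a mean TPM of 10, against 7.83% of genes, the others being Zfp36l2 (99.5 and 179.98 TPM) and Zfp36l1 (48.1 and 96.4 TPM). Nab1, its relative, was at 2.28 and 5.44 TPM.

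The heat shock response genes, induced by other stress routes, lay mostly above 0. Only 1 of the 5 with a mean TPM of at least 10 lay below 0, against 61.7% of such genes. Of the 5 that averaged at least 10 TPM, Hspb1 (102.3 and 79.6 TPM), a small heat shock protein, was over 2-fold higher in replicate 1 relative to the median gene (1.02), against 5.28% of genes. Its log2 ratio without centring was 0.36. Hspa8 (613 and 798 TPM), the constitutive chaperone, was at 0.28 and Dnajb1, a heat-induced cochaperone, at -0.01 (22.99 and 37.3 TPM). Hsp90aa1 was at 0.50 (16.8 and 18.9 TPM). The median of the 5 was 0.50, against -0.75 for the 9 members and -0.15 for all genes.

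Marker lists of cells of the gut wall lay on both sides of 0. Smooth muscle markers summed to 1360 and 1206 TPM, fibroblast markers to 143 and 147 TPM, macrophage and neutrophil markers to 176 and 232 TPM, T cell markers to 32.8 and 45.6 TPM, and crypt stem and proliferation markers to 158 and 196 TPM. Over the genes averaging at least 10 TPM, the median relative log2 ratio was 0.87 for smooth muscle (8 genes), 0.59 for fibroblasts (5 genes), 0.36 for macrophages and neutrophils (5 genes), 0.58 for the 1 T cell gene and 0.36 for the crypt list (4 genes). Endothelial markers (42.6 and 95.3 TPM) lay at -0.44 (2 genes). Plasma cell markers (32091 and 64018 TPM) lay at -0.14 (6 genes) and enterocyte markers at -1.62 (11 genes). Of the enterocyte markers, 10 lay below 0. Alpi, named outside the rule after its values were seen, lay at 1.84 (3759 and 1663 TPM). Of the neutrophil markers, Ly6g had no counts in either library, and S100a8 (0.25 and 0 TPM) and S100a9 (0.36 and 0 TPM) were under 1 TPM. Their part in the members' values was not tested.

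By level alone, the protein-coding genes nearest to Jund over the 2 libraries, by Euclidean distance in log2(TPM + 1), were Cdc42ep5 (203 and 536 TPM, distance 0.11), Tspan13 (182 and 557 TPM, 0.15) and Tmem238 (186 and 460.2 TPM, 0.15).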

How the data were processed

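A pair of tables was used per library, for genes and for transcripts. Per the labels, stranded libraries of poly(A)-selected RNA above 200 nt were read in paired reads of 76 nt. The text deposited beside the tables names mm10 and annotation M4; neither aligner nor quantifier is given in the sources used here. The authors deposited expected counts, TPM and FPKM, the percent of gene TPM held by each transcript, and posterior mean TPM and credibility interval bounds (a score per feature; the interval's level is not given). Gene symbols and positions came from GENCODE M21 (GRCm38, which is mm10), matched on identifiers without their version, and 3 of the 10 members kept the same version. The older symbols in the lists were matched through RefSeq synonyms.

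From the deposited values, relative log2 ratios were computed with a pseudocount of 1, centred on the median of 12260 genes with mean TPM of at least 1. Counts past 2-fold used 5926 genes with mean TPM of at least 10. There are no groups to compare, so no test was run. The ratio step was tried on simulated data, which modelled no one-sided shift in composition such as that of the pancreas RNA. Expected counts were rounded to whole numbers for TMM factors (edgeR 4.0.16) and DESeq2 1.42.0 size factors, used as alternative scalings in R 4.3.3. Other steps used Python 3.11.15 with pandas 2.3.3. With no counts, a share of up to 6.60e-06% of replicate 1 and 6.55e-06% of replicate 2 is allowed (3 counts), for counting error only. Named genes are the members, and in each list the 4 highest by mean TPM, up to 4 past 2-fold in each direction and those without counts; others are said to be outside this rule. Members and lists were chosen with earlier results of these data known. The gene families and promoter and decay motifs were chosen after values were seen.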

Additional observations from a re-analysis of the deposited data

How the results depend on the processing

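The summed TPM of the members (1055) ranged from 587 to 1524 when 1 replicate was left out, members at or above 1 TPM from 9 to 10, and other immediate early genes at or above 1 TPM from 38 to 39. The share of the main transcript ranged from 93.6% to 95.9% for Fos, from 88.7% to 97.4% for Dusp1 and from 35.4% to 69.2% for the 3036 nt form of Egr1, and by expected counts the Fos share was 98.3%. The median member ratio of -0.77 stayed below 0 on all scales tried, at -0.60 with TMM, -0.62 with DESeq2 size factors, -0.96 with TPM rescaled without pancreas and stomach genes, -1.12 with spike-in scaling and -1.43 both without centring and with all genes, most of them at 0, setting the median. Members over 2-fold higher in replicate 2, 1 in the main count, numbered 7 without centring, 6 with spike-in scaling, 3 without pancreas and stomach genes and 2 with no filter on low values, where 34.9%, 17.5%, 12.8% and 1.42% of genes were called, against 7.83% in the main count. Other immediate early genes over 2-fold higher in replicate 2, 4 in the main count, numbered 13, 9 and 7 on the first 3 of these scales, with the same shares of all genes, and those higher in replicate 1, 2 in the main count, numbered 0, 0 and 1. The median over genes averaging at least 1 TPM, at 0 in the main setting, moved as well. It was -0.02 with TMM, -0.04 with DESeq2 size factors, -0.28 without pancreas and stomach genes and -0.41 with spike-in scaling. Without centring, every gene shifts by the same -0.66. The cause of the other shifts was not tested. No paired analysis was possible because the series has 1 group. With 2 libraries of 1 group, a difference between them has no further replicate, and low counts limit Fosb in replicate 1 (109 counts) and the retained-intron form of Dusp1 in replicate 2 (7.28 counts).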
